A study of Mus musculus with 9 samples.

Results

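The 3 colony-stimulating factor genes, Csf1, Csf2 and Csf3, and the 4 genes of their receptor chains, Csf1r, Csf2ra, Csf2rb and Csf3r, were followed in primed macrophages exposed to organotins. These 7 genes were taken by name from the 18193 genes on the array, and all 7 were measured, by 14 probe sets that name only 1 of them. Each gene was read from its probe set with the highest mean over the 9 arrays, and the other probe sets are given beside it. The cells were bone marrow derived macrophages of C57BL6 mice aged 6 to 12 weeks, grown in medium with 10% L929-conditioned medium, a usual source of CSF-1, which was withdrawn on day 5 in vitro. On day 6 every group was primed with ultrapure lipopolysaccharide (LPS, a bacterial cell wall endotoxin) at 33 ng/mL for 3 h. The cells then received TMT OH at 1.25 µM, TET Br at 10 µM or sterile saline for 6 h, and these groups are called TMT, TET and saline cells (plotted as LPS+TMT, LPS+TET and LPS). Each group held 3 biological replicates on 1 array each. The study set each organotin against saline in order to follow expression during NLRP3 inflammasome activation. The doses differ, so a difference between TET and TMT cells compares the exposures as given and not the compounds at a matched dose.

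Colony-stimulating factors are secreted proteins that keep myeloid cells alive, growing and differentiating. CSF-1 (M-CSF, from Csf1) acts through the receptor tyrosine kinase encoded by Csf1r, on which macrophages depend. GM-CSF (from Csf2) binds an alpha chain (Csf2ra) and a signalling beta chain (Csf2rb), while G-CSF (from Csf3) acts through the receptor encoded by Csf3r and is best known for its effect on neutrophils. LPS induces Csf2 and Csf3 in macrophages, and both mRNAs carry AU-rich elements that mark them for decay.

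Promoter sequence is shown for the ligand with the largest fall and the receptor chain with the largest rise among the members in TMT cells, Csf1 and Csf3r. Each run holds 250 bases, 5′ to 3′ on the strand of the gene, ending just before the start used by the RefSeq promoter set for GRCm38.p6. For Csf3r and Csf2ra that start lies inside the gene as RefSeq annotates it, and the whole Csf3r window lies within the annotated gene. The Csf1 window is chr3:107760470-107760719 (minus strand) and the Csf3r window is chr4:126024409-126024658 (plus strand). Capitals mark matches to the consensus of NF-kB, the factor family that LPS activates, and to GAGGAAG, a core bound by the myeloid factor PU.1.
Csf1: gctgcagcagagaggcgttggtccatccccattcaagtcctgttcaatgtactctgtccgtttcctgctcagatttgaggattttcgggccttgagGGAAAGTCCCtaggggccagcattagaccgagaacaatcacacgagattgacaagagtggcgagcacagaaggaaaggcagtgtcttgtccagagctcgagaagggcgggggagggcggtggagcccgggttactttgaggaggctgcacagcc
Csf3r: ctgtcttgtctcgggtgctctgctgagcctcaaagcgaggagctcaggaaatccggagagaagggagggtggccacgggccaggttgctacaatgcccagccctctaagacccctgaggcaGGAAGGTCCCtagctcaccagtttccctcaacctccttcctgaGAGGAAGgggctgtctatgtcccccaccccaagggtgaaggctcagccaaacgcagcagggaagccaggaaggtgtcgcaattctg

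On either strand, the NF-kB consensus matched once in each window shown, as GGAAAGTCCC in Csf1 and as GGAAGGTCCC in Csf3r, starting at bases -154 and -129 from the start used. It had no match in the Csf2 and Csf2ra windows. It matched in 7.25% of 32851 promoter windows of this length. GAGGAAG occurred in 10.6% of windows, at -86 in Csf3r and, as 2 overlapping copies, at -14 and -8 in Csf2ra. The NF-kB and GAGGAAG matches of Csf3r and both Csf2ra copies lie within the annotated genes. The C/EBP motif TTGCNNAA (9.56% of windows) occurred in the Csf2 window at -145, and the AP-1 motif TGANTCA (6.75% of windows) in none of the 4 member windows searched. Windows of Csf3, Csf1r and Csf2rb were not used here. These matches are letters in a window and not measured binding sites.

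Values are log2 signals, differences are log2 fold changes, and errors of group means are SD with n = 3. Every adjusted p comes from limma, with Benjamini-Hochberg adjustment over all 18193 genes, and a gene passed at an adjusted p under 0.05. The main fit pools the spread of a gene over all groups. Leaving out a TMT array can thus change the adjusted p of TET against saline, but not that difference. A probe set other than the brightest was tested in a fit of all probe sets, with adjustment over these. The labels do not tie replicates to separate mice, so a p-value reflects only the spread among these samples, which may be technical. Fewer cells of a type and less RNA per cell cannot be told apart in bulk RNA. Arrays of a group correlated across genes, which are not independent replicates, at 0.994 to 0.998 in TMT, 0.990 to 0.992 in TET and 0.997 to 0.998 in saline cells. The interquartile range of an array was 3.45 to 3.55 in TET cells and 3.78 to 3.86 in TMT cells, against 3.83 to 3.88 in saline cells. The sources used here do not say whether all arrays were normalized together, so quantile normalization over the 9 arrays was repeated as an alternative. All 12 macrophage markers were measured. None of them was within the range of 39 olfactory receptor genes, a description of low signal whose 95th percentile was 5.53.

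Csf2 mRNA was lower, and Csf3 and Csf2rb mRNA higher, in both exposures than in saline cells, while Csf1 fell and Csf3r rose in TMT cells. Against saline, 3 of the 7 members rose in TMT cells (Csf3, Csf2rb and Csf3r), 2 fell (Csf1 and Csf2) and 2 did not pass (Csf1r and Csf2ra). Of all genes, 27.8% passed in TMT cells, 14.3% upward and 13.4% downward. In TET cells 2 members rose (Csf3 and Csf2rb), 2 fell (Csf2 and Csf1r) and 3 did not pass (Csf1, Csf2ra and Csf3r), beside 50.8% of all genes passing, 27.4% upward and 23.4% downward. The 4 of 7 in TET cells is thus near the background. All 7 are among the 9097 brighter genes. Fitted alone, 4628 of these genes passed in TMT cells and 6066 in TET cells. The TMT and saline arrays did not overlap for 6 members, beside 44.7% of all genes, and the TET and saline arrays for all 7, beside 58.7% of all genes. The median difference over the members was 0.11 in TMT and 0.27 in TET cells, beside 0.01 and 0.09 over all genes.

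**Figure D1:**
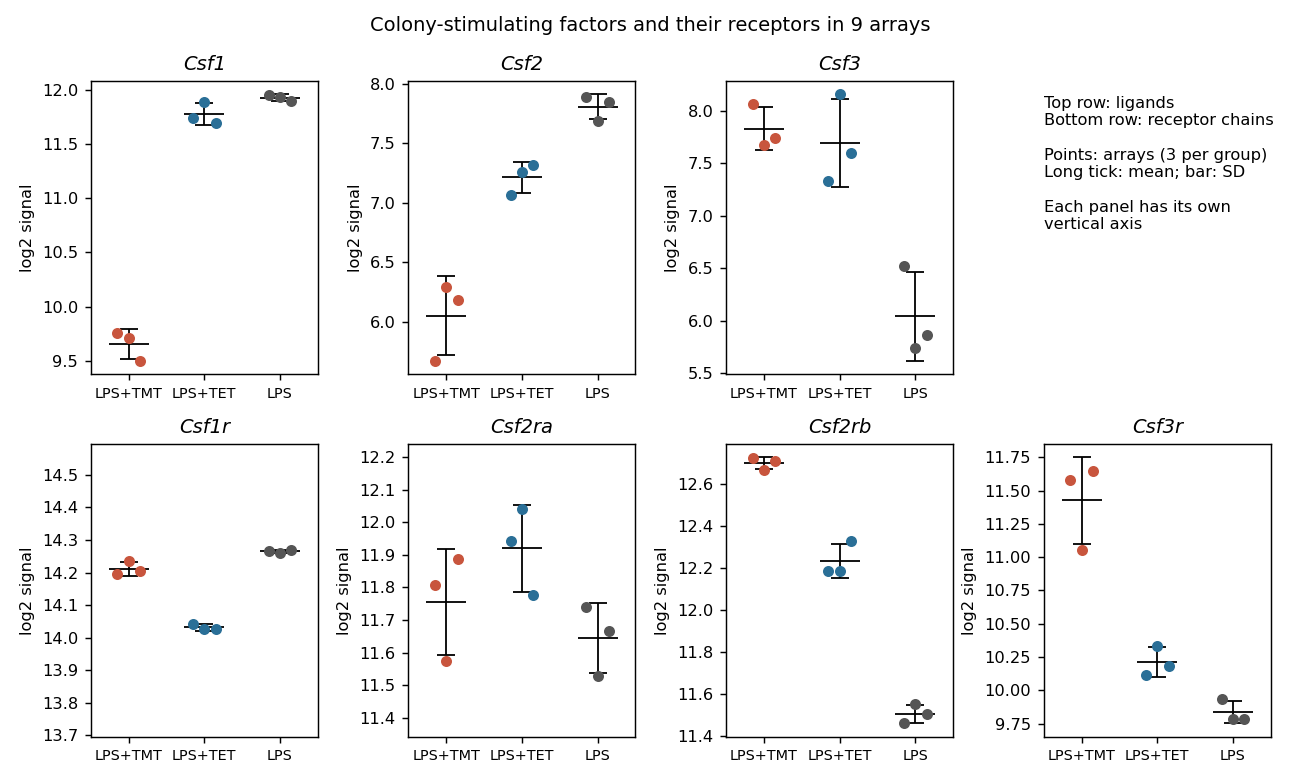
Log2 signal of the 7 members on each of the 9 arrays, 1 panel per gene with its own vertical axis; points are arrays, long ticks are group means and bars are SD (n = 3). TMT arrays lie lowest for Csf1 (9.50 to 9.76) and highest for Csf3r (11.05 to 11.64), and TMT and TET arrays lie together above saline for Csf3.

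Csf1 mRNA was lower in TMT cells and close to saline in TET cells. Its level was 9.76, 9.71 and 9.50 in TMT cells and 11.75, 11.89 and 11.69 in TET cells, against 11.96, 11.94 and 11.90 in saline cells. The TMT arrays lay far below all others, and the TET arrays lay just below the saline range. Csf1 fell 4.85-fold in TMT cells (-2.28, SE 0.10, 95% interval -2.50 to -2.06, adjusted p = 2.1e-07). It did not pass in TET cells (-0.15, 95% interval -0.37 to 0.06, adjusted p = 0.21), where cyclic loess normalization turned the sign (0.050). The difference of TET minus TMT cells was 2.12 (4.36-fold, adjusted p = 1.1e-07).

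Csf1 has 3 further probe sets, and all of them fell in TMT cells by differing amounts. In order of brightness, the difference from saline was -2.49 (adjusted p = 3.0e-06), -1.01 (adjusted p = 3.9e-04) and -0.56 (adjusted p = 0.036). The first of these and the main probe set were built on 1 source sequence, and the other two on another. In TET cells the 3 read -0.12, 0.019 and -0.11, and none passed.

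Csf2, the GM-CSF gene, was lower in both exposures and lowest in TMT cells. Its level was 5.67, 6.29 and 6.18 in TMT cells and 7.07, 7.26 and 7.32 in TET cells, against 7.89, 7.69 and 7.85 in saline cells. The 3 groups did not overlap, and TET cells lay between the others. Csf2 fell 3.39-fold in TMT cells (-1.76, SE 0.15, 95% interval -2.11 to -1.42, adjusted p = 1.5e-05) and 1.51-fold in TET cells (-0.60, 95% interval -0.94 to -0.25, adjusted p = 0.0092). TET cells held 2.24-fold more than TMT cells (1.17, adjusted p = 1.4e-04). The TMT mean of 6.05 is above the 95th percentile of the olfactory receptor genes but under the highest of them (6.30), so the fold may understate the fall.

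Csf3, the G-CSF gene, was higher in both exposures. Its level was 8.06, 7.68 and 7.74 in TMT cells and 7.33, 8.16 and 7.60 in TET cells, against 6.52, 5.74 and 5.86 in saline cells. Every exposed array lay above every saline array, and the TMT and TET ranges overlapped. Csf3 rose 3.45-fold in TMT cells (1.79, SE 0.24, 95% interval 1.25 to 2.33, adjusted p = 2.9e-04) and 3.15-fold in TET cells (1.66, 95% interval 1.12 to 2.20, adjusted p = 2.9e-04). The difference of TET minus TMT cells did not pass (-0.13, 95% interval -0.67 to 0.41, adjusted p = 0.67), and this interval leaves room for a difference either way. The saline mean of 6.04 is under the highest olfactory receptor gene (6.30), so these folds too may understate the change. Csf2 and Csf3 thus moved in opposite directions in both exposures.

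**Figure D2:**
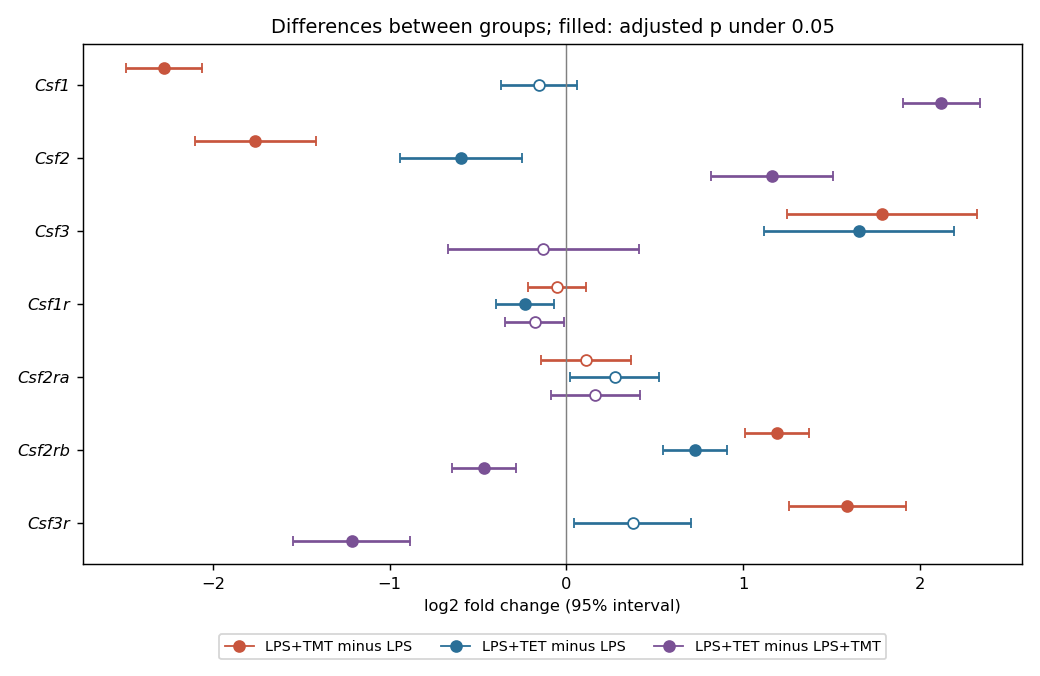
Log2 fold change of each member for each of the 3 comparisons, with 95% intervals from limma; the vertical line marks 0 and filled points passed. Csf1 is at -2.28 in TMT cells and -0.15 in TET cells, and Csf3r at 1.59 and 0.38.

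Csf1r, the CSF-1 receptor, had almost the same signal on all arrays of its main probe set. The level was 14.19, 14.23 and 14.21 in TMT cells and 14.04, 14.03 and 14.03 in TET cells, against 14.27, 14.26 and 14.27 in saline cells. These values are close to the highest value in the table (14.79). Csf1r did not pass in TMT cells (-0.05, adjusted p = 0.69) and fell 1.18-fold in TET cells (-0.23, SE 0.07, adjusted p = 0.024). The TET call was lost without saline replicate 1, 2 or 3 (-0.23, -0.24 and -0.23, adjusted p = 0.065, 0.065 and 0.069). TET minus TMT was -0.18 (adjusted p = 0.065).

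The dimmer Csf1r probe sets gave larger falls. For the dimmest the level was 11.00, 10.71 and 11.39 in TMT cells and 10.58, 11.04 and 10.58 in TET cells, against 11.82, 11.55 and 11.64 in saline cells. All exposed arrays of that probe set lay below saline, and it fell in TMT cells (-0.64, adjusted p = 0.031) and in TET cells (-0.94, adjusted p = 0.0022). For the other the difference was -0.25 in TMT cells (adjusted p = 0.20) and -0.55 in TET cells (adjusted p = 0.0042). The mean over the 3 probe sets fell in TMT cells by 0.31 (adjusted p = 0.040), so the TMT call for Csf1r depends on the probe set.

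Csf2ra, the ligand-binding chain of the GM-CSF receptor, gave different answers from its 2 probe sets, which were built on the same source sequence. The main one read 11.81, 11.57 and 11.89 in TMT cells and 11.94, 12.04 and 11.78 in TET cells, against 11.74, 11.53 and 11.67 in saline cells. It did not pass in TMT cells (0.11, adjusted p = 0.57) or in TET cells (0.27, 95% interval 0.02 to 0.53, adjusted p = 0.067). The TET value passed without TET replicate 3 (0.35, adjusted p = 0.035) and without TMT replicate 2 (0.27, adjusted p = 0.046). The dimmer probe set read 9.45, 9.66 and 9.10 in TMT cells and 11.21, 10.96 and 10.62 in TET cells, against 9.19, 9.25 and 9.17 in saline cells. On it TET cells stood alone above both other groups, 3.31-fold above saline (1.73, adjusted p = 2.5e-05) and 2.88-fold above TMT cells (1.53, adjusted p = 5.6e-05). It did not pass in TMT cells (0.20, adjusted p = 0.51).

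Csf2rb, the signalling beta chain that the GM-CSF receptor shares with those for interleukin-3 and interleukin-5, was higher in both exposures. Its level was 12.72, 12.67 and 12.71 in TMT cells and 12.18, 12.19 and 12.33 in TET cells, against 11.46, 11.55 and 11.50 in saline cells. The 3 groups did not overlap, with TMT cells highest. Csf2rb rose 2.29-fold in TMT cells (1.19, SE 0.08, adjusted p = 3.1e-06) and 1.66-fold in TET cells (0.73, adjusted p = 4.9e-05), and TET cells were below TMT cells by 1.38-fold (-0.47, adjusted p = 8.9e-04). Its dimmer probe set rose as well, by 1.44 in TMT cells (adjusted p = 0.0011) and by 0.79 in TET cells (adjusted p = 0.015). On it TET minus TMT was -0.64 (adjusted p = 0.039), and arrays of the exposures overlapped.

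Csf2rb2, the near-identical mouse paralogue that serves interleukin-3 alone, also rose, 1.66-fold in TMT cells (0.73, adjusted p = 1.7e-04) and 1.55-fold in TET cells (0.63, adjusted p = 2.7e-04). A probe set annotated to both paralogues rose by 0.89 in TMT cells (adjusted p = 0.012) and by 1.17 in TET cells (adjusted p = 0.0013). TET minus TMT passed neither for Csf2rb2 (-0.10, adjusted p = 0.38) nor on the shared probe set (0.27, adjusted p = 0.31). Signal of these 2 genes may be split between their probe sets, so the share of each in the rise is uncertain.

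Csf3r, the G-CSF receptor, had the largest rise among the receptor chains, in TMT cells. Its level was 11.58, 11.05 and 11.64 in TMT cells and 10.11, 10.33 and 10.19 in TET cells, against 9.93, 9.79 and 9.79 in saline cells. The TMT arrays lay above all others, and the TET arrays lay just above saline. Csf3r rose 3.01-fold in TMT cells (1.59, SE 0.15, 95% interval 1.26 to 1.92, adjusted p = 2.3e-05). It did not pass in TET cells (0.38, 95% interval 0.04 to 0.71, adjusted p = 0.058), but did without TMT replicate 2 (0.38, adjusted p = 0.0081), after another quantile normalization (0.50, adjusted p = 0.013) and after cyclic loess (0.61, adjusted p = 0.0046). The SD of Csf3r was 0.33 in TMT, 0.11 in TET and 0.08 in saline cells, and the TMT spread enters the TET test. TET cells were below TMT cells by 2.32-fold (-1.21, adjusted p = 7.9e-05).

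Neutrophils carry Csf3r, so their markers are given beside it. Of 10 measured of 12 neutrophil and granulocyte precursor markers, 0 rose and 4 fell in TMT cells, and 1 rose and 4 fell in TET cells. These are 40% and 50% of those measured, beside 27.8% and 50.8% of all genes. The summed linear signal of the 10 markers was 2530 to 3520 in TMT cells and 2044 to 2246 in TET cells, against 3494 to 4109 in saline cells. In TMT cells the 4 that fell were S100a9 (-1.70), Ngp (-1.42), Mpo (-0.60) and Ltf (-0.49), while S100a8 did not pass (0.45, adjusted p = 0.052). Elane, Prtn3, Ctsg and Cxcr2 were within the olfactory receptor range. Endothelial and stromal cells make colony-stimulating factors. The summed signal of the 6 endothelial markers was 551 to 747 in TMT cells and 1134 to 1301 in TET cells, against 496 to 609 in saline cells. A linear sum weighs the brightest markers most, and 5 of the 6 were within the olfactory receptor range. Kdr, the marker above it, was 0.30 in TMT cells (adjusted p = 0.18) and rose by 1.28 in TET cells (adjusted p = 5.9e-05). In TET cells 5 of the list rose and 0 fell (83.3%). The 8 fibroblast and stromal markers summed to 1530 to 2034 in TMT cells and 951 to 1169 in TET cells, against 1336 to 1455 in saline cells. The lower TET sum goes against most calls of this list. In TET cells 3 markers rose and 1 fell (50% of the list), the fall being that of Pdgfrb (-1.59, adjusted p = 1.4e-05). The median marker level was 6.30 in TMT and 6.58 in TET cells, against 6.18 in saline cells. The part of any of these cells in the member results was not tested.

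**Figure D3:**
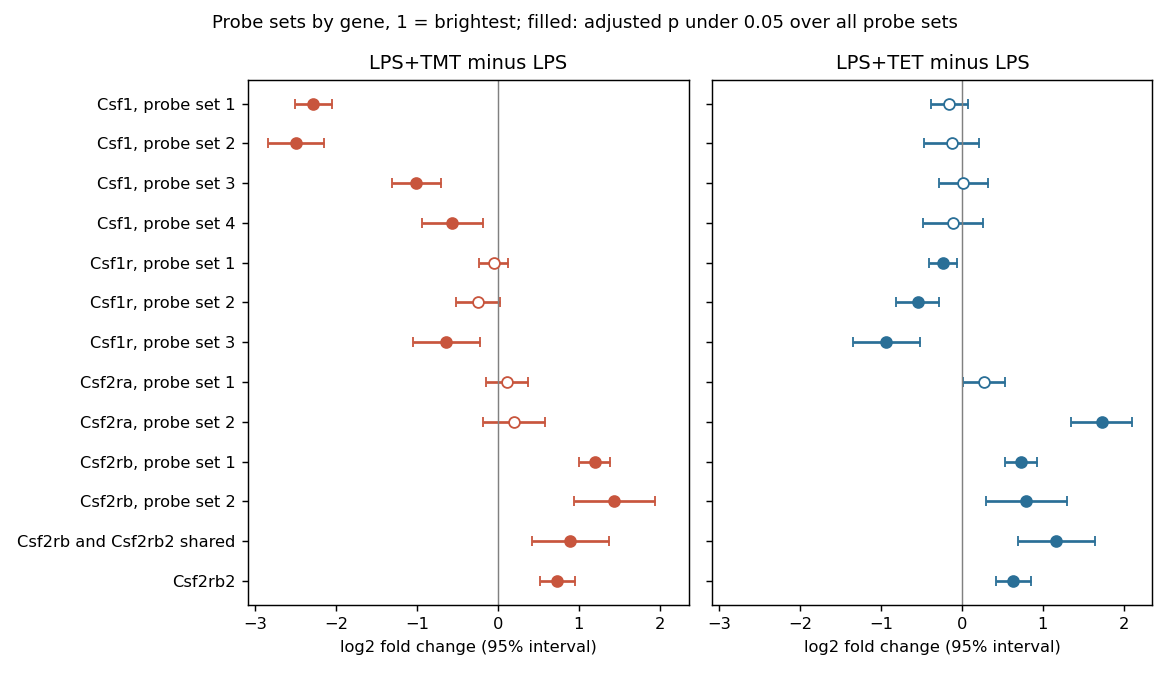
Log2 fold change against saline for every probe set of the members with several, and for Csf2rb2 and the probe set it shares with Csf2rb, in TMT and in TET cells, with 95% intervals from limma and filled points where the probe set passed. The 4 Csf1 probe sets all lie below 0 in TMT cells (-2.49 to -0.56), and the 2 Csf2ra probe sets part in TET cells (1.73 and 0.27).

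Set directly against each other, TET and TMT cells differed in 4 members, beside 51.8% of all genes (28.1% higher and 23.7% lower in TET cells). Csf1 and Csf2 were higher in TET cells, Csf2rb and Csf3r were lower, and Csf3, Csf1r and Csf2ra did not pass. Arrays of the 2 exposures did not overlap for 5 members, beside 57% of all genes.

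Of the partners of these chains, Il34, the other ligand of the CSF-1 receptor, read 4.04 to 4.39 in TMT cells and 4.02 to 4.15 in TET cells, against 4.13 to 4.40 in saline cells. It was within the olfactory receptor range and did not pass in either exposure. With cyclic loess Il34 passed in TET cells (-0.32, adjusted p = 0.044). Il3ra, the alpha chain of the interleukin-3 receptor, rose 1.41-fold in TET cells (0.50, adjusted p = 0.0033) and did not pass in TMT cells (-0.02, adjusted p = 0.94). TET minus TMT was 0.52 for Il3ra (adjusted p = 0.0025). Tyrobp, an adaptor that relays CSF-1 receptor signals, did not pass in TMT cells (-0.09, adjusted p = 0.49) and fell in TET cells by 0.24 (adjusted p = 0.029). That call was lost without TET replicate 1 (-0.21), without saline replicate 1, 2 or 3 (-0.23, -0.26 and -0.24) and with the replicate block (-0.24), at adjusted p-values of 0.052 to 0.084.

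The counts of the pathway lists stand against all genes, of which 27.8% passed in TMT and 50.8% in TET cells, with medians of 0.01 and 0.09. Brighter genes passed more often than all genes in both exposures, and stood lower in TET cells. Of 9097 fitted alone, 4628 passed in TMT cells (2425 rose and 2203 fell, median 0.03). In TET cells 6066 of them passed (2204 rose and 3862 fell, median -0.19). Among 9 measured of 10 other ligands and receptor chains of these families, 1 rose and 1 fell in TMT cells, and 4 rose and 0 fell in TET cells. These are 22.2% and 44.4% of the list, near the shares of all genes, with medians of -0.04 and 0.33. Kitl, the ligand of the Kit receptor and a relative of CSF-1, moved in opposite directions: it averaged 6.28 ± 0.08 in TMT cells and 9.53 ± 0.20 in TET cells, against 7.32 ± 0.04 in saline cells. It fell by 1.04 in TMT cells (adjusted p = 5.5e-05) and rose by 2.22 in TET cells (adjusted p = 1.7e-07). The TMT mean is under the highest olfactory receptor gene (6.30), so the fall may be understated. Flt3, a receptor kinase related to Csf1r, passed in TET cells (0.33, adjusted p = 0.029) at a mean of 4.96 ± 0.13, within the olfactory receptor range. The Flt3 call was lost under 9 of 18 alternatives: leaving out saline replicate 1, 2 or 3 or TET replicate 2 or 3 (0.29 to 0.34), the replicate block (0.33), quantile normalization again (0.19), arrays centred on medians (0.25) and cyclic loess (0.15), at adjusted p-values of 0.053 to 0.34.

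Of 29 measured of 33 signal transduction genes of these receptors, 9 rose and 5 fell in TMT cells (median 0.07), while 3 rose and 20 fell in TET cells (median -0.59). The list thus passed in 48.3% and 79.3% of its genes. The TMT count was 8 in all without probe sets that may bind related transcripts. That setting leaves Stat5a and Stat5b without a value, so the lower count includes genes not measured there. Stat5a and Stat5b, the transcription factors that GM-CSF and related cytokines activate, fell in both exposures. Stat5a averaged 10.88 ± 0.12 in TMT cells and 11.63 ± 0.09 in TET cells, against 12.86 ± 0.04 in saline cells. It fell by 1.98 in TMT cells (adjusted p = 3.3e-07) and fell by 1.23 in TET cells (adjusted p = 3.0e-06). Stat5b fell by 1.31 in TMT cells (adjusted p = 7.0e-06) and fell by 1.63 in TET cells (adjusted p = 8.2e-07). Dok2, an adaptor that damps kinase signals, rose by 0.74 in TMT cells (adjusted p = 0.0062) and fell by 1.88 in TET cells (adjusted p = 8.2e-06). Pik3cg, a catalytic subunit of phosphoinositide 3-kinase, rose by 2.08 in TMT cells (adjusted p = 9.9e-06) and was -0.31 in TET cells (adjusted p = 0.16), where the mean over probe sets passed (-0.50, adjusted p = 0.0014).

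Of 24 measured of 25 feedback inhibitors and early targets, 8 rose and 11 fell in TMT cells (median -0.29), and 12 rose and 7 fell in TET cells (median 0.47), 79.2% of the list in each. Cish, an inhibitor that STAT5 induces, averaged 7.83 ± 0.11 in TMT cells and 10.33 ± 0.37 in TET cells, against 10.94 ± 0.03 in saline cells. It fell 8.63-fold in TMT cells (-3.11, adjusted p = 5.1e-07) and 1.52-fold in TET cells (-0.60, adjusted p = 0.010), and cyclic loess ended the TET call (-0.33, adjusted p = 0.11). Spry2, an inhibitor of receptor kinase signals, rose by 0.55 in TMT cells (adjusted p = 8.7e-04) and by 2.76 in TET cells (adjusted p = 1.1e-08). The cytokine Osm, a STAT5 target, rose by 0.63 in TMT cells (adjusted p = 0.0012) and by 2.58 in TET cells (adjusted p = 5.0e-08). Dusp5, a phosphatase that turns off ERK, was -0.29 in TMT cells (adjusted p = 0.060) and rose by 1.60 in TET cells (adjusted p = 8.3e-07). Dusp5 passed in TMT cells under 6 of 19 alternatives, without TMT replicate 2 or saline replicate 2 among them (-0.36 each, adjusted p = 0.026 and 0.049).

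**Figure D4:**
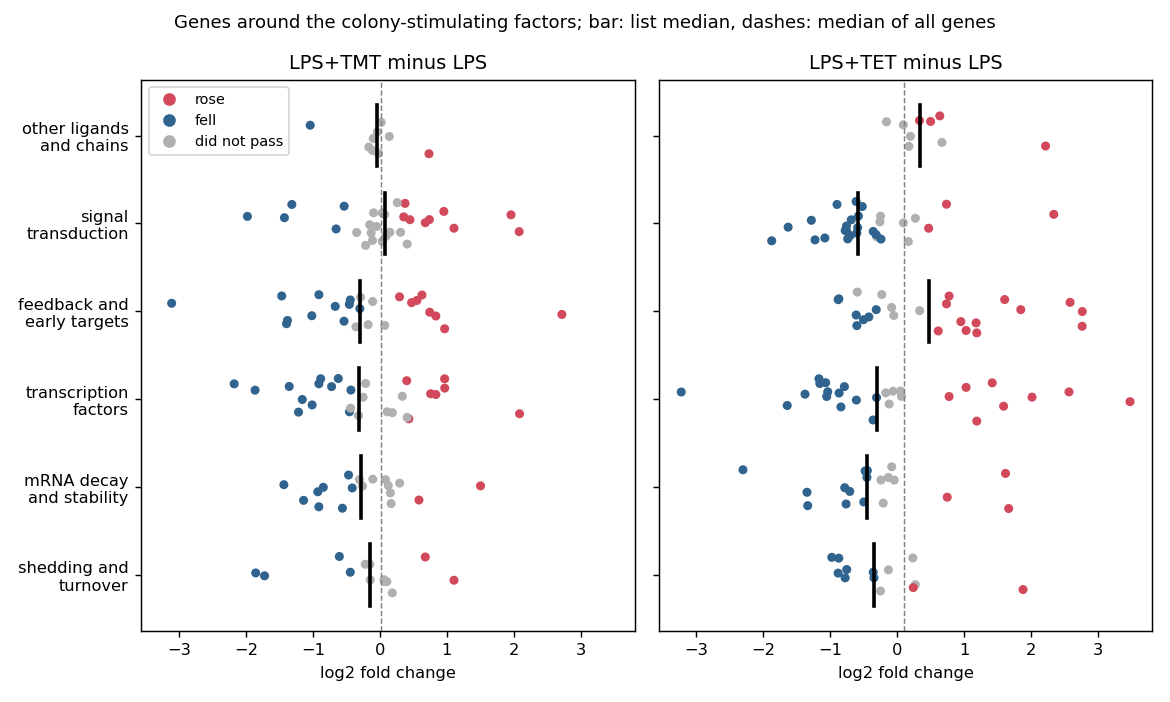
Log2 fold change against saline of each measured gene in the 6 pathway lists, in TMT and in TET cells; points are genes, coloured by call, bars show list medians and dashed lines the median of all genes. The signal transduction list is centred near 0 in TMT cells (median 0.07) and below it in TET cells (median -0.59).

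Of 27 measured of 29 transcription factors of these genes, 7 rose and 12 fell in TMT cells (median -0.32), and 8 rose and 14 fell in TET cells (median -0.31), or 70.4% and 81.5% of the list. Rel, the NF-kB subunit c-Rel, averaged 9.88 ± 0.15 in TMT cells and 11.75 ± 0.08 in TET cells, against 12.06 ± 0.06 in saline cells. It fell 4.52-fold in TMT cells (-2.17, adjusted p = 2.7e-07) and 1.24-fold in TET cells (-0.31, adjusted p = 0.024). The TET call for Rel was lost under 6 of 19 alternatives: without TET replicate 2 (-0.26), without saline replicate 1 or 2 (-0.28 and -0.30), with quantile normalization again (-0.23), with array weights (-0.32) and with cyclic loess (-0.11), at adjusted p-values of 0.051 to 0.39. Bhlhe40, a repressor that GM-CSF induces, rose by 0.97 in TMT cells (adjusted p = 1.5e-04) and by 3.48 in TET cells (adjusted p = 1.6e-08). Gfi1, a repressor in granulocyte development, fell by 0.62 in TMT cells (adjusted p = 0.0074) and fell by 3.23 in TET cells (adjusted p = 7.0e-08). Jun, a subunit of AP-1, rose by 0.43 in TMT cells (adjusted p = 0.0081) and by 2.01 in TET cells (adjusted p = 1.7e-07).

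Of 18 measured of 19 decay and stability factors, 2 rose and 8 fell in TMT cells (median -0.28), and 3 rose and 10 fell in TET cells (median -0.45), or 55.6% and 72.2% of the list. Zfp36, which encodes tristetraprolin, a protein that binds AU-rich elements and promotes decay of Csf2 mRNA, fell by 0.56 in TMT cells (adjusted p = 0.0024) and fell by 0.45 in TET cells (adjusted p = 0.0049). Its relative Zfp36l1 rose by 1.51 in TMT cells (adjusted p = 8.4e-06) and by 1.66 in TET cells (adjusted p = 2.3e-06). Zfp36l2, of the same family, rose by 0.59 in TMT cells (adjusted p = 0.016), a call lost without TMT replicate 1 or 3 or saline replicate 2 (0.56, 0.50 and 0.44, adjusted p = 0.058, 0.064 and 0.064). It rose by 1.62 in TET cells (adjusted p = 1.4e-05). Rc3h1, the stem-loop binding protein Roquin-1, fell by 1.14 in TMT cells (adjusted p = 4.8e-06) and fell by 0.71 in TET cells (adjusted p = 6.6e-05). Cnot6, a deadenylase subunit, was -0.10 in TMT cells (adjusted p = 0.65) and fell by 1.34 in TET cells (adjusted p = 1.7e-05).

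Of the 13 genes of shedding and turnover, 2 rose and 4 fell in TMT cells (median -0.14), and 2 rose and 7 fell in TET cells (median -0.35), or 46.2% and 69.2% of the list. Rhbdf1, a regulator of the shedding protease ADAM17, fell by 1.85 in TMT cells (adjusted p = 1.4e-06) and fell by 0.98 in TET cells (adjusted p = 5.4e-05). Nedd4l, a ubiquitin ligase, fell by 1.72 in TMT cells (adjusted p = 2.8e-05) and rose by 1.88 in TET cells (adjusted p = 9.2e-06). The Nedd4l call in TMT cells was lost without probe sets that may bind related transcripts (-0.31, adjusted p = 0.42). That setting drops the main Nedd4l probe set, and related transcripts there may be of the same gene. Itch, another ubiquitin ligase, was 0.07 in TMT cells (adjusted p = 0.69), where the mean over probe sets passed (0.35, adjusted p = 0.0061), and fell by 0.88 in TET cells (adjusted p = 3.0e-05). Cbl, the ligase that marks the CSF-1 receptor for degradation, rose by 1.11 in TMT cells (adjusted p = 3.4e-05) and fell by 0.36 in TET cells (adjusted p = 0.020), where the mean over probe sets turned the sign (0.087). The Cbl call in TET cells was also lost without TET replicate 1 or 2 (-0.32 and -0.33), without saline replicate 2 or 3 (-0.35 each), with quantile normalization again (-0.19) and with cyclic loess (-0.09), at adjusted p-values of 0.052 to 0.49. Cbl, Cblb, Ets2, Egr2 and Fos are each in 2 of the 6 lists.

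The genes whose pattern over the 9 arrays was most like that of each member were found among 9097 brighter genes, by the root mean square difference of log2 signals taken relative to each gene's saline mean. Csf1 was nearest to Rel (0.151), Abcb4, a phospholipid transporter (0.155), and Tbc1d1, a regulator of Rab GTPases (0.190). Csf2 was nearest to Ckb, a creatine kinase (0.173), Ikzf5, of the Ikaros family (0.198), and Ptger4, the prostaglandin E2 receptor EP4 (0.202). Csf3 had no neighbour closer than Fabp3, a fatty acid binding protein (0.272), followed by Zfp558 (0.287) and the sterol exporter Abcg1 (0.305). Spread among replicates enters this measure, and the SD of Csf3 was 0.21 in TMT, 0.42 in TET and 0.42 in saline cells. For Csf2rb the nearest were Gzf1 (0.0764), Wipf1 (0.0832) and Cep170 (0.0889), and for Csf3r Cybc1, needed for the phagocyte NADPH oxidase (0.114), Rasgrp1 (0.154) and Slc8b1 (0.167). For Csf1r and Csf2ra the measure reads only the main probe sets, that of Csf1r lying near the top of the table's range, while dimmer probe sets of both genes moved further in TET cells. The nearest genes were the chemokine Ccl9 (0.0386), the lysozyme Lyz1 (0.0431) and Cnpy2 (0.0436) for Csf1r, and Hspg2 (0.0668), Drap1 (0.0819) and Zfp526 (0.0842) for Csf2ra.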

How the data were processed

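RNA of 9 macrophage cultures was measured on Affymetrix mouse genome expression arrays after amplification with a Nugen kit, per the labels' protocols. The deposited values are log2 signals of 45037 probe sets, made with RMA and affy per the submitters' processing notes. Neither their versions nor a joint run of all arrays is stated there. The base of the logarithm was taken from the values (2.05 to 14.79). Precision is limited by the 3 arrays per group, and no control probe sets were in the table.

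Probe sets were named from the platform annotation, and 34945 named 1 gene, 932 several and 9160 none, with 204 gene IDs absent from the gene table used. For each of 18193 genes the probe set with the highest mean was kept. Limma 3.58.1 in R 4.3.3 fitted 1 mean per group over all 9 arrays (6 residual degrees of freedom), with eBayes moderation and Benjamini-Hochberg adjustment. The fit was tested on simulated data. No test of 3 arrays against 3 by exact permutation was run, since its smallest p is 0.1.

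The members, the 6 pathway lists and the 8 marker lists were chosen with earlier results of these data known. The text names the members, 6 genes tied to them, each member's 3 pattern neighbours and, of each pathway list, up to 4 members with the smallest adjusted p against saline. Alternatives were leaving out each array in turn and 10 others, and each other probe set of a member. Probe sets that may bind related transcripts are those with names ending in _a_at, _s_at or _x_at. This setting does not separate transcripts of the same gene from those of other genes. Promoter windows are from RefSeq (GRCm38.p6), where 4 of 7 members matched. Replicate numbers were checked for pairing by correlating deviations from group means.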

Additional observations from a re-analysis of the deposited data

How the results depend on the processing

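Of 417 alternative values of the 21 member differences, 384 kept their direction and side of the threshold, 4 lost the call, 25 gained it and 4 turned sign, and 13 of the 21 differences changed under no alternative. For other named genes, 1464 of 1521 values kept both, 38 lost the call, 11 gained it and 8 turned sign. Unless a value or construction named here shows the cause, the cause was not tested. In TMT against saline, Csf1r passed as the mean over probe sets (-0.31) and on its dimmest probe set (-0.64). In TET against saline, Csf1 turned to 0.050 with cyclic loess and to 0.019 on its third-brightest probe set. Csf1r ranged from -0.24 to -0.23 when arrays were left out in turn. Csf2ra ranged from 0.21 to 0.35 when arrays were left out, and passed as the mean over probe sets (1.00), with quantile normalization again (0.37), cyclic loess (0.44), trended robust moderation (0.27) and on its dimmer probe set (1.73). Csf3r ranged from 0.31 to 0.42 when arrays were left out, and passed at 0.38 as the mean over probe sets, among bright genes alone, with trended robust moderation and with the 6 arrays alone, at 0.50 with quantile normalization again, 0.61 with cyclic loess and 0.41 with array weights. In TET against TMT, Csf3 ranged from -0.36 to 0.051 when arrays were left out (0.051 without TET replicate 1) and was 0.027 with quantile normalization again. Csf1r passed there as the mean over probe sets (-0.26), among bright genes alone and with trended robust moderation (-0.18), with quantile normalization again and cyclic loess (-0.22) and with arrays centred on medians (-0.24). Csf2ra passed as the mean over probe sets (0.85) and on its dimmer probe set (1.53). Other sign turns were Il34 in TMT cells (-0.12 to 0.048 when arrays were left out) and between exposures (0.0038 with array weights), Il3ra in TMT cells (-0.040 to 0.016 when arrays were left out, 0.011 with array weights), Cbl in TET cells (0.087, mean over probe sets), and between exposures Csf2rb2 (0.018, cyclic loess) and Stat5b (0.012, mean over probe sets). The genes passing numbered 5049 in TMT against saline and 8756 with array weights (4561 rose, 4195 fell). In that setting TMT replicate 1 had a weight of 8.13, beside 0.40 and 0.96 for TMT replicates 2 and 3. The weighted TMT mean thus rests mostly on 1 array. Bright genes fitted alone, 9097 genes, gave 6066 passing in TET against saline (2204 rose) and 6270 between exposures (2366 rose), with 36.3% and 37.7% of calls higher. The fit of all genes gave 9247 and 9425, with 53.9% and 54.3% higher. Leaving out arrays gave 3971 to 5522, 7540 to 9372 and 8006 to 9232 passing genes. Replicate numbers did not clearly pair the arrays: 3 of 9 same-numbered pairs (-0.15 to 0.31) and 3 of 18 other pairs (-0.30 to 0.26) correlated above 0.1. Of the 9 arrays, 4 correlated best with their own number. These values do not settle whether the numbers mark pairs. With the replicate block 4859 genes passed in TMT against saline, and among member calls only that of Csf1r in TET cells was lost (-0.23, adjusted p = 0.053). Without probe sets that may bind related transcripts Csf1, Stat5a, Stat5b, Zfp36 and Il34 have no value.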

Other observations

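The other marker lists gave the following values, with no part in the member results tested. Their counts stand beside 27.8% of all genes passing in TMT cells and 50.8% in TET cells. Of the 12 macrophage markers, 4 rose and 2 fell in TMT cells, and 3 rose and 4 fell in TET cells (50% and 58.3%). Their summed linear signal was 79436 to 94429 in TMT cells and 69149 to 76611 in TET cells, against 84582 to 87456 in saline cells. Of 7 measured dendritic cell markers, 1 rose and 2 fell in TMT cells, and 2 rose and 1 fell in TET cells. Their sums were 724 to 796 in TMT cells and 1169 to 1537 in TET cells, against 1061 to 1150 in saline cells. Zbtb46, Cd209a and Xcr1 of this list were within the olfactory receptor range. The endothelial list had 1 member that rose in TMT cells and 5 that rose in TET cells, and the fibroblast list 1 that rose in TMT cells and 3 that rose and 1 that fell in TET cells. Of 5 measured B cell markers, 1 fell in TMT cells, and 3 rose and 1 fell in TET cells. Ms4a1 and Pax5, which rose in TET cells, were within the olfactory receptor range. The B cell sums were 254 to 294 in TMT cells and 398 to 491 in TET cells, against 485 to 521 in saline cells. Of 5 measured T and NK cell markers, 2 fell in TMT cells and 2 rose in TET cells. Their sums were 231 to 242 in TMT cells and 295 to 335 in TET cells, against 257 to 264 in saline cells. Cd3e and Ncr1 of this list were within the olfactory receptor range. Of 8 mast cell, basophil and eosinophil markers, 0 passed in TMT cells and 2 rose in TET cells, with 6 of the 8 within the olfactory receptor range.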
